A study of Homo sapiens with 3 samples.

Results

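The genes described here are 37 genes of the replication fork and of S phase chromatin, measured in HepG2 cells after etoposide. They encode the subunits of DNA polymerases alpha, delta and epsilon with primase, the GINS complex, the clamp loaders, the single-strand binding protein RPA, the enzymes that process Okazaki fragments, the fork protection proteins, and the factors that assemble and methylate new chromatin. A gene was taken where its name on the array equalled a listed member, and the brightest probe by mean log2 signal over the arrays stood for it. All 37 listed genes were found, of 27274 named genes on the array. The list of genes names no threshold on a ratio, and measured signal entered the rule only through the choice of probe. The list itself was chosen with earlier results of these data known.

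HepG2 is an established human hepatocellular carcinoma line, and etoposide is an anticancer drug that traps topoisomerase II on DNA and leaves double-strand breaks. Control cells, labelled untreated at 0 μM, were compared with cells given the low dose of 10 μM or the high dose of 100 μM etoposide, all taken at 30 h. The paper names DMSO as the control of its array ratios. The study looked for genes separating senescence from apoptosis after DNA damage. Total RNA, amplified and labelled with Cy3, was hybridised to 3 one-color Agilent arrays, 1 array per condition, so every ratio below describes a pair of arrays and has no replicate check. The number of arrays limits the precision, and no p-value is given.

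Of 34127 probes on each array, 20114 were well above background on the control array, 19836 at 10 μM and 20151 at 100 μM. All 9 hepatocyte markers were well above background on every array, with summed scaled signals of 235058, 245479 and 305112 in control, low dose and high dose cells. Of 8 markers of other cell types, 5 (PECAM1, CDH5, PTPRC, CD3E and CD68) were well above background on every array and the collagens COL1A1, COL1A2 and COL3A1 on none, with summed scaled signals of 1012, 740.2 and 1301. Their part in the results below was not tested. In a bulk culture, fewer cells in S phase and less of a transcript per cell cannot be told apart.

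At each replication fork, the MCM helicase with GINS and CDC45 unwinds the DNA, primase and polymerase alpha lay down primers, and the clamp loader RFC puts the sliding clamp PCNA on them for polymerase epsilon on the leading strand and polymerase delta on the lagging strand. RPA covers exposed single strands, FEN1, DNA2 and LIG1 join the lagging strand pieces, and CAF-1, UHRF1 and DNMT1 restore nucleosomes and CpG methylation behind the fork. Many of these genes are transcribed toward S phase under E2F factors, which bind T-rich and GC-rich promoter sites such as TTTCCCGC.

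The promoters of 6 members are shown because they belong to the ends of the range. Among members above background on all arrays, GINS2, UHRF1 and CHAF1A had the highest ratios of low dose over high dose signal after DSCC1, whose promoter is not shown, and POLD4, POLE4 and RFC1 had the lowest. Each sequence is from RefSeq on GRCh38.p14, runs 5′ to 3′ on the strand of the gene from 250 bases before the first listed start through 50 bases from it, and has in capitals every E2F-type word on either strand. These are the words TTTCCCGC, TTTGGCGC, TTTCGCGC and TTTGCCGC without their first T, 7 letters each.

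GINS2: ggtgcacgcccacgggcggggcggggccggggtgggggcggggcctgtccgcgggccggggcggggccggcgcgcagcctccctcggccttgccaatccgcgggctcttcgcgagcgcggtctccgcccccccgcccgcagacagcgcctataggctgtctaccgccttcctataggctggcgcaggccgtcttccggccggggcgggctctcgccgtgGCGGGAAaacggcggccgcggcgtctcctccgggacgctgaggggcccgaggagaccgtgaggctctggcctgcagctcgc
UHRF1: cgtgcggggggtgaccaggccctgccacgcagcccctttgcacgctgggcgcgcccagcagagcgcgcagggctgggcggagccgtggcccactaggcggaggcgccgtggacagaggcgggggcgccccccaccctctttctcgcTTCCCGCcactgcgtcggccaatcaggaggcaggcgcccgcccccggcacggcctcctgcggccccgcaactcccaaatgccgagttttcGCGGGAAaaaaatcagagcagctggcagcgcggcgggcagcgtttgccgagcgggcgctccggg
CHAF1A: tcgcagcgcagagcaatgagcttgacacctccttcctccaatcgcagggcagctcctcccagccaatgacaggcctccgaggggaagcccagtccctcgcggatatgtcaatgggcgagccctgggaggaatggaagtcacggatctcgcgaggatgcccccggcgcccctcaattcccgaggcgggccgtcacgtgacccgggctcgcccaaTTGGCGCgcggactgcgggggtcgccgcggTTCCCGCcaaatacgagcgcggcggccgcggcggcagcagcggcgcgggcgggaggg
POLD4: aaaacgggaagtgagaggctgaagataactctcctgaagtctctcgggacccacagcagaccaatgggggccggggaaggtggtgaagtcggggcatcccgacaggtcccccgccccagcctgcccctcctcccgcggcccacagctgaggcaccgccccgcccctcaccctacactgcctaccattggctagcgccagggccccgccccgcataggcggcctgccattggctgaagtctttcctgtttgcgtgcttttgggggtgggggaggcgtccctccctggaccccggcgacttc
POLE4: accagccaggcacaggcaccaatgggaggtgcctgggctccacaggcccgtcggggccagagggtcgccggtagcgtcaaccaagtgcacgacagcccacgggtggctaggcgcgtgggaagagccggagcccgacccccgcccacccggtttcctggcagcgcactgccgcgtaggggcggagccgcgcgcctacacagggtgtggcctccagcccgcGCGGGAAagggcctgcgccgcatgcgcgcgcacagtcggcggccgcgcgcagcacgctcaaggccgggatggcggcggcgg
RFC1: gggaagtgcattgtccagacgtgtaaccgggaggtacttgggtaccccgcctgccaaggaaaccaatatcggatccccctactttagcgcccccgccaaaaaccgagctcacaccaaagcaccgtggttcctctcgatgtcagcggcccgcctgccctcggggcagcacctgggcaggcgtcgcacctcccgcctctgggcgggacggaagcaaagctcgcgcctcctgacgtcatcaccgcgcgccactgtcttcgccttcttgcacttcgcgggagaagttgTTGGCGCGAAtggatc

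GINS2 (chr16:85688905-85689204, minus strand), which encodes a GINS subunit, had 1 such word, beginning 31 bases upstream of the start. UHRF1 (chr19:4909251-4909550, plus strand) had 2, beginning 104 and 14 bases upstream, and CHAF1A (chr19:4402390-4402689, plus strand) had 2, beginning 37 and 7 bases upstream. POLD4 (chr11:67353547-67353846, minus strand) had none at either of its 2 listed starts. POLE4 (chr2:74958393-74958692, plus strand) had 1 at 31 bases upstream, the same distance as in GINS2, although its ratio was at the other end of the range. RFC1 (chr4:39366313-39366612, minus strand) had 2 overlapping words inside the first 50 transcribed bases. A word match is a description of letters and not a bound site.

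The table of RefSeq promoters used here held 31 of the 37 members. At the first listed start, 23 of these 31 genes (74.2%) held a 7-letter E2F-type word on either strand, as compared with 13.1% of 27303 genes. The full 8-letter words, each of which holds a 7-letter word, were found in 13 of 31 members (41.9%) and in 3.33% of all genes. CCAAT, the core of the NF-Y box, was found on either strand in 17 of 31 members (54.8%) and in 35.7% of all genes. The word TTTGAA, the core of the CHR element of G2 and M phase promoters, was found in none of the 31 members at the first start and in 15.4% of all genes. These promoters were richer in G and C, with a median of 68% as compared with 58.3% over all genes, and no correction was made for base composition.

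**Figure D1:**
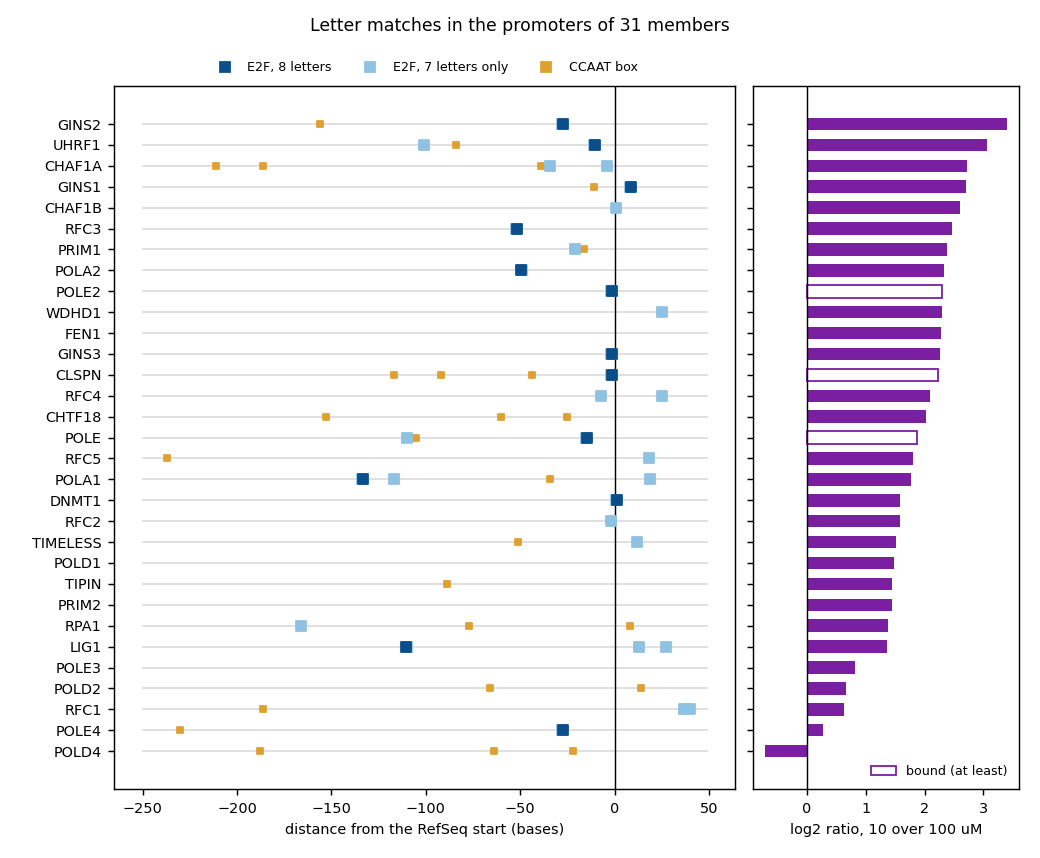
Left, positions of the 8-letter and 7-letter E2F-type words and of CCAAT relative to the first RefSeq start for the 31 members with a listed promoter, in bases. Right, the log2 ratio of 10 μM over 100 μM for the same genes, which are ordered by it, with open bars for bounds. Most E2F-type words lie within 50 bases of the start, and POLE4 and RFC1 hold such words near the lower end of the order.

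Members with an 8-letter word had a median log2 ratio of low dose over high dose of 2.27, with a range of 0.28 to 3.40, and the 18 without had 1.55, with a range of -0.71 to 2.72. With the 7-letter words the medians were 2.22 in 23 genes and 1.44 in 8. The ranges overlapped widely for both, and the difference was not tested. POLE, POLE2 and CLSPN, the members whose ratio between the doses is a bound, all held an 8-letter word. After normexp, another background correction described below, their log2 ratios fell from 1.87, 2.29 and 2.22 to 0.76, 0.84 and 0.89. The medians by word are not given after normexp, so the difference is shown for 1 background correction only.

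Signals below are scaled signals, which are processed signals in arbitrary units brought to the 75th percentile of the control array. Levels of different probes are not compared with each other. The spot error beside a log2 ratio is the spread expected from spots of like brightness on the same arrays, and it leaves out all differences between cultures.

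Across the members, the low dose was a little above control. The median log2 ratio of 10 μM over control was 0.58, a 1.5-fold higher signal, while over all genes it was -0.04. Of the 37 members, 34 had a higher signal at the low dose and 3 (PRIM2, POLD2 and POLE4) a lower one. Of 16663 genes with a ratio, 7562 were higher. More than 2-fold higher were 7 members, namely POLA2, POLE, GINS4, DSCC1, FEN1, LIG1 and CLSPN, beside 3.37% of all genes tested. After normexp background correction, which adds an offset of 50 to every signal, POLA2 and GINS4 alone of these were past 2-fold, with log2 ratios of 1.09 and 1.31, and the other 5 were not. Over all genes, 564 were more than 2-fold higher before this correction and 253 after it. No member was more than 2-fold lower, beside 1.6% of all genes.

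At the high dose most members were below control. The median log2 ratio of 100 μM over control was -1.07, a 2.1-fold lower signal, while over all genes it was 0.10. POLD4 alone among the 37 had a higher signal at 100 μM, and the other 36 had a lower one. Of 16777 genes with a ratio, 7120 were lower. More than 2-fold lower were 23 members, beside 3.66% of all genes, and 1 member, POLD4, was more than 2-fold higher, beside 6.76% of all genes. The split over all genes depended on the scaling. At the 75th percentile 1148 genes were more than 2-fold higher and 622 lower, and with no scaling 637 were higher and 1076 lower, while 36 of 37 members were below control under both.

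Between the doses, the median log2 ratio of 10 μM over 100 μM was 1.87, a 3.65-fold higher signal at the low dose, as compared with -0.11 over all genes. Of the members, 36 were higher at the low dose, beside 6664 of 16686 genes with a ratio. By more than 2-fold 31 members were higher, beside 3.63% of all genes. None was more than 2-fold higher at the high dose, beside 3.95% of all genes. With no scaling the all-gene split between the doses was 1002 higher and 288 lower at the low dose, as compared with 610 and 663 at the 75th percentile. Each dose is set against the same control array, and the ratio between the doses uses the same treated arrays, so these ratios are given side by side and are not independent observations.

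**Figure D2:**
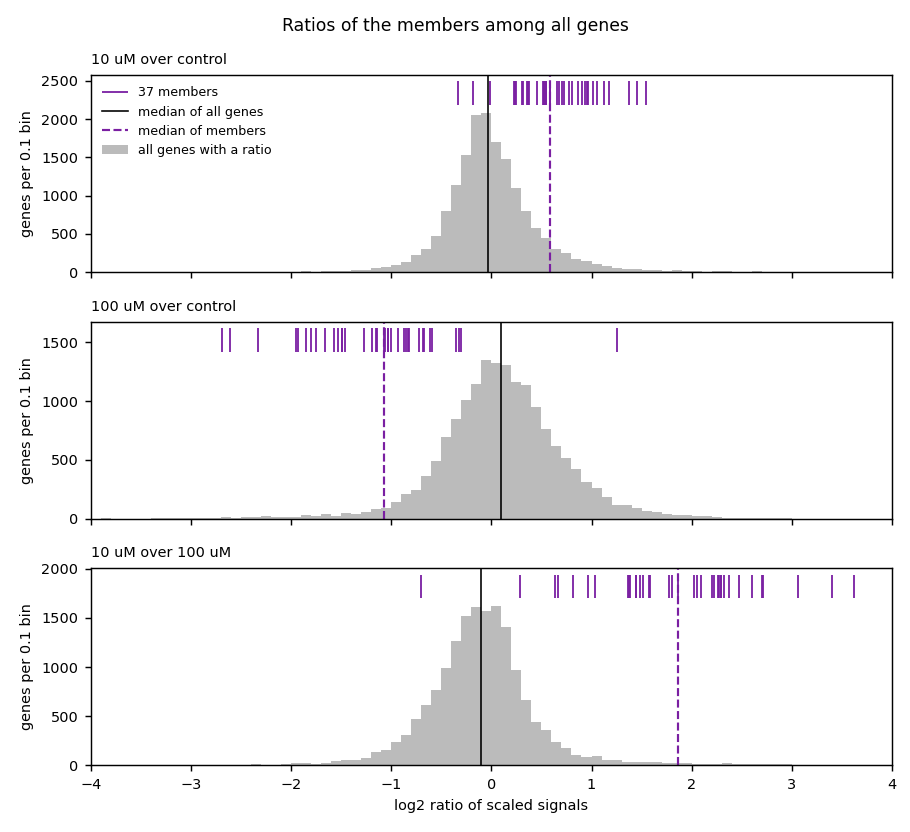
Number of genes per 0.1 log2 bin for the ratio named above each panel, with every member as a purple tick, the median of all genes as a black line and the median of the members as a dashed line. The member medians are 0.58, -1.07 and 1.87, as compared with -0.04, 0.10 and -0.11 for all genes, and at most 13 genes a panel lie beyond the axis.

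The spread among members was smallest at the low dose. The standard deviation over the 37 log2 ratios was 0.42 at 10 μM over control, 0.72 at 100 μM over control and 0.86 between the doses. Over all genes it was 0.52, 0.67 and 0.60, so the smallest spread at the low dose was not particular to the members. The median spot error of a member's log2 ratio was 0.07, 0.08 and 0.07 in the same order. POLE, POLE2 and CLSPN were not well above background at the high dose, so that their ratios involving 100 μM are bounds, set against the higher of their own signal and the dimmest signal called well above background on that array. The other 34 members were above background on all arrays.

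**Figure D3:**
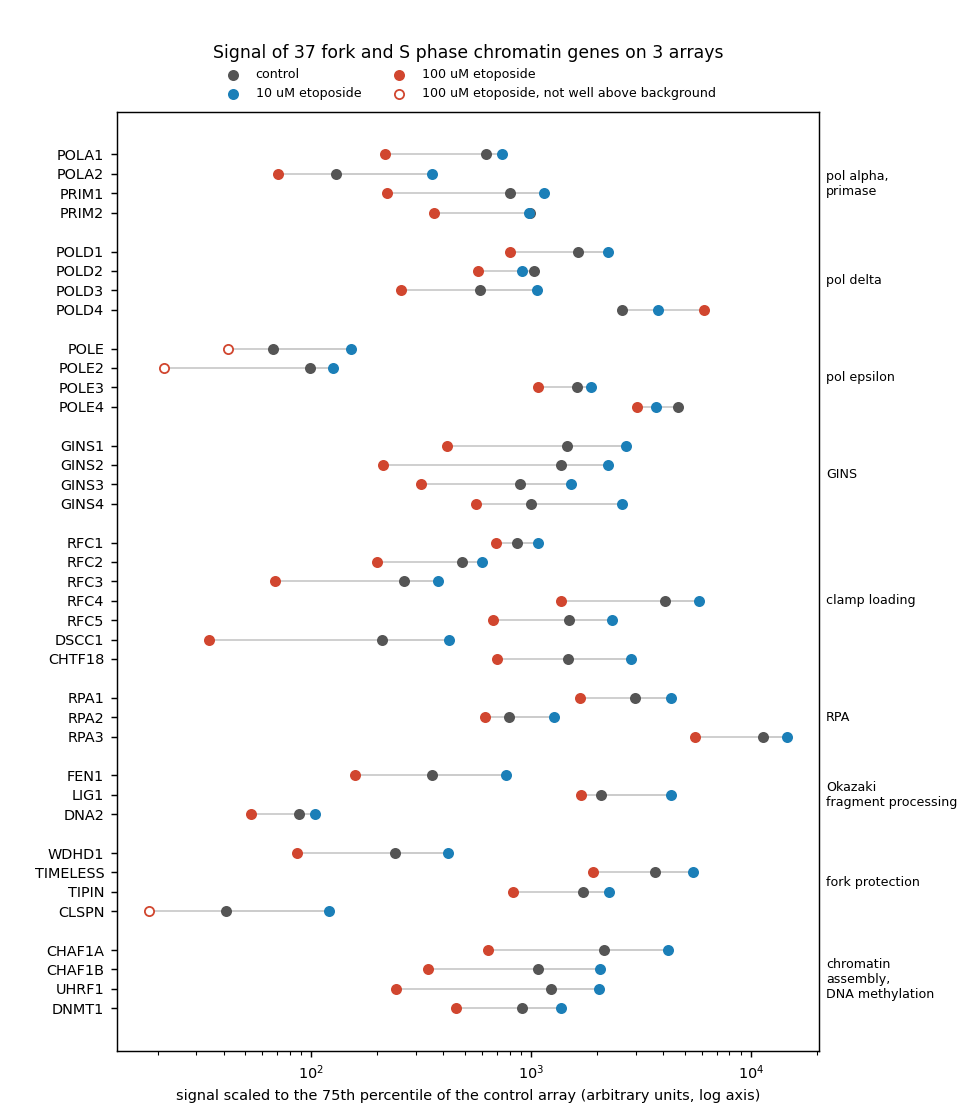
Scaled signal of each member on the control (grey), 10 μM (blue) and 100 μM (red) arrays on a log axis, 1 point per array, grouped by role. Red lies left of grey for 36 genes and right of it for POLD4, and open circles mark POLE, POLE2 and CLSPN, which were not well above background at 100 μM.

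DNA polymerase alpha and primase start every new strand. As compared with control, the 4 genes had a median log2 ratio of 0.38 at 10 μM and -1.50 at 100 μM, and 3 of the 4 were more than 2-fold lower at the high dose. POLA1, the catalytic subunit of polymerase alpha, had signals of 626 in control cells, 737 at 10 μM and 216 at 100 μM, which is 1.18-fold higher and 2.90-fold lower than control. POLA2, the regulatory subunit, had 129.8, 356 and 70.8, so the low dose was 2.74-fold higher, with a log2 ratio of 1.45 ± 0.14 (spot error), and the high dose 1.83-fold lower. By these values the subunits of polymerase alpha differed most from each other at the low dose. After normexp the log2 ratios of POLA1 and POLA2 were 0.20 and 1.09 at 10 μM. They were -1.23 and -0.38 at 100 μM, about as far apart as at 10 μM.

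PRIM1, the catalytic primase subunit, had signals of 799.98, 1148 and 221 in control, low dose and high dose cells. Its high dose signal was 3.62-fold lower than control, with a log2 ratio of -1.85 ± 0.03 (spot error), as its probe was spotted 10 times. PRIM2, the large primase subunit, had 993, 981 and 361, and its log2 ratio of -0.02 ± 0.08 at the low dose was within the spot error and took either sign over the scalings tried. Its dimmer probes went both ways there, with log2 ratios of 0.86 ± 0.20 and -0.27 ± 0.15, so no direction is given for PRIM2 at 10 μM. At the high dose PRIM2 was 2.75-fold lower. Both dimmer probes were also lower at 100 μM, by at least 1.69-fold and at least 3.93-fold.

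DNA polymerase delta, which copies the lagging strand, was the complex whose subunits differed in direction at the high dose. POLD1, the catalytic subunit, had signals of 1633, 2235 and 801, that is 1.37-fold higher than control at 10 μM and 2.04-fold lower at 100 μM. POLD3, an accessory subunit, had 587, 1069.5 and 258, or 1.82-fold higher and 2.28-fold lower. POLD2, the subunit that bridges POLD1 and POLD3, had 1037, 911 and 574, so it was 1.14-fold lower than control at 10 μM and 1.81-fold lower at 100 μM.

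POLD4, the smallest polymerase delta subunit, had 2586, 3771 and 6157. Its signal was lowest in control cells and highest at 100 μM, an order that no other member had by its brightest probe, although the dimmer POLE probe described below had it. The low dose was 1.46-fold higher than control, and the high dose 2.38-fold higher, with a log2 ratio of 1.25 ± 0.07 (spot error). Between the doses its signal was 1.63-fold lower at 10 μM than at 100 μM, whereas POLD1, POLD2 and POLD3 were 2.79-fold, 1.59-fold and 4.15-fold higher. POLD4 was measured by a single probe, at chr11:66875714-66875773 on the minus strand of hg18.

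DNA polymerase epsilon copies the leading strand, and its small subunits POLE3 and POLE4 are histone-fold proteins found in other chromatin complexes too. POLE2, the second subunit, had 98.3, 126 and 21.4, so the low dose signal exceeded control by 1.28-fold, and the high dose signal, not well above background, was at least 3.82-fold lower, or 1.52-fold lower after normexp. POLE3 had 1616, 1885 and 1073, or 1.17-fold higher and 1.51-fold lower. POLE4 had 4652, 3699.98 and 3045, so it was below control at both doses, by 1.26-fold and 1.53-fold. The second POLE4 probe gave 4278, 3373 and 2998, the same order over the arrays.

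POLE, the catalytic subunit, had probes that disagreed in direction at the high dose. Its brighter probe, at chr12:131712305-131712364 on hg18, had 67.2, 152 and 41.8. That is 2.27-fold above control for the low dose and at least 1.61-fold below it for the high dose. After normexp POLE was 1.57-fold above control at the low dose and 1.08-fold below it at the high dose. Between the doses it was then 1.70-fold higher at 10 μM. The dimmer probe, at chr12:131744021-131744080, had 20.5, 32.7 and 78.6 and was well above background only in treated cells. By that probe the signal was higher at 100 μM than in control cells by at least 3.84-fold, and its log2 ratio of 10 μM over 100 μM was -1.27 ± 0.32 (spot error). Both probes are annotated to the same transcript, NM_006231, and the direction of POLE at the high dose therefore depends on the probe.

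The 4 GINS genes encode the complex that joins CDC45 and MCM2-7 in the active helicase. All 4 were above control at the low dose, with a median log2 ratio of 0.84, and below it at the high dose, with a median of -1.65. GINS1 had signals of 1456, 2719.8 and 417, that is 1.87-fold higher and 3.49-fold lower than control. GINS2 had 1377, 2247 and 213, and its high dose signal was 6.48-fold lower, with a log2 ratio of -2.70 ± 0.03 (spot error). DSCC1, of the clamp loading group, was close at -2.61 ± 0.09. After normexp background correction they were no longer close, at -2.27 for GINS2 and -1.25 for DSCC1. Between the doses GINS2 differed 10.6-fold.

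GINS3 had signals of 894, 1526 and 317, or 1.71-fold higher than control at 10 μM and 2.82-fold lower at 100 μM. GINS4 had 1004, 2595 and 563. Its low dose ratio of 2.58-fold was the highest of the 4 GINS genes and its high dose ratio, 1.78-fold lower, was the smallest in size. Although their products form a single complex, the 4 genes thus spanned -2.70 to -0.84 in log2 ratio at the high dose, a range far wider than their spot errors.

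Clamp loading has 7 members here, the 5 subunits of RFC and 2 subunits of the CTF18 loader that also serves sister chromatid cohesion. All 7 were above control at 10 μM and below it at 100 μM, and 6 were more than 2-fold lower at the high dose. RFC1, the large subunit, was the exception in size. Its signals were 866, 1081 and 694, a 1.25-fold higher signal at 10 μM and a 1.25-fold lower signal at 100 μM.

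The small RFC subunits, which all RFC-like loaders share, were further from control at the high dose than RFC1. RFC2 had 484, 597 and 200.1, and was 2.42-fold lower than control at 100 μM. RFC3 had 263, 377 and 68.1, and was 3.86-fold lower, while its second probe gave 191, 316 and 42.9 and a 4.46-fold lower signal. After normexp the brighter RFC3 probe was 2.12-fold lower. RFC4 had 4067, 5846 and 1368, and was 2.97-fold lower. RFC5, for its part, was 2.21-fold lower, with signals of 1492, 2349 and 674. At the low dose these 4 genes were between 1.23-fold and 1.57-fold above control.

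DSCC1, a subunit particular to the CTF18 loader, had the widest difference between the doses among the members with the software's own background correction. Its signals were 209, 422 and 34.3, and they came from a probe spotted 10 times. The low dose was 2.02-fold higher than control and the high dose 6.09-fold lower, so the doses differed 12.3-fold, with a log2 ratio of 3.62 ± 0.09 (spot error). After normexp background correction this log2 ratio was 2.12, a 4.33-fold difference, below the 2.95 of GINS2 and the 2.75 of UHRF1. The high dose signal of DSCC1 was then 2.38-fold lower than control. CHTF18, the large subunit of the same loader, had 1473, 2854 and 700.3, and was 1.94-fold higher and 2.10-fold lower. At the low dose these values lay just above and just below the 2-fold line.

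RPA holds single-stranded DNA at the fork and at resected breaks. Between the doses the 3 RPA genes had log2 ratios of 1.37 ± 0.07 (RPA1), 1.04 ± 0.07 (RPA2) and 1.39 ± 0.07 (RPA3), with spot errors. RPA2 thus lay below the others by more than the spot errors. RPA1, the large subunit, had signals of 2964, 4326 and 1672, or 1.46-fold higher than control and 1.77-fold lower. RPA2, the subunit phosphorylated after DNA damage, had 794, 1269.8 and 619, or 1.60-fold higher and 1.28-fold lower. RPA3 had 11429.7, 14638 and 5594, which is 1.28-fold higher and 2.04-fold lower. Second probes for RPA1 and RPA2 were dimmer and had the same order over the arrays. For RPA1 the second probe's low dose log2 ratio of 0.18 ± 0.30 was within its spot error. Its high dose signal was not well above background. The second RPA2 probe was 1.03-fold below control at the high dose, within its spot error, and its log2 ratio between the doses was 0.63 ± 0.10.

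Okazaki fragment processing was the group with the highest median at the low dose, a log2 ratio of 1.06 over 3 genes. FEN1, the flap endonuclease, had signals of 353, 768 and 158, that is 2.18-fold higher and 2.23-fold lower than control. LIG1, which seals the nicks, had 2082, 4339 and 1690.3, so it was 2.08-fold higher at 10 μM and 1.23-fold lower at 100 μM. DNA2, a nuclease and helicase that trims long flaps and also resects breaks, had 88.2, 104 and 53.5. Its log2 ratio at the low dose was 0.24 ± 0.15 (spot error). At the high dose DNA2 was 1.65-fold lower than control, or 1.12-fold lower after normexp. Between the doses it was 1.95-fold higher at 10 μM, or 1.27-fold after normexp. At 100 μM LIG1 was -0.30 ± 0.07 from control on the log2 scale, near the -0.32 ± 0.08 of RFC1, from which it differed by less than the spot error.

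**Figure D4:**
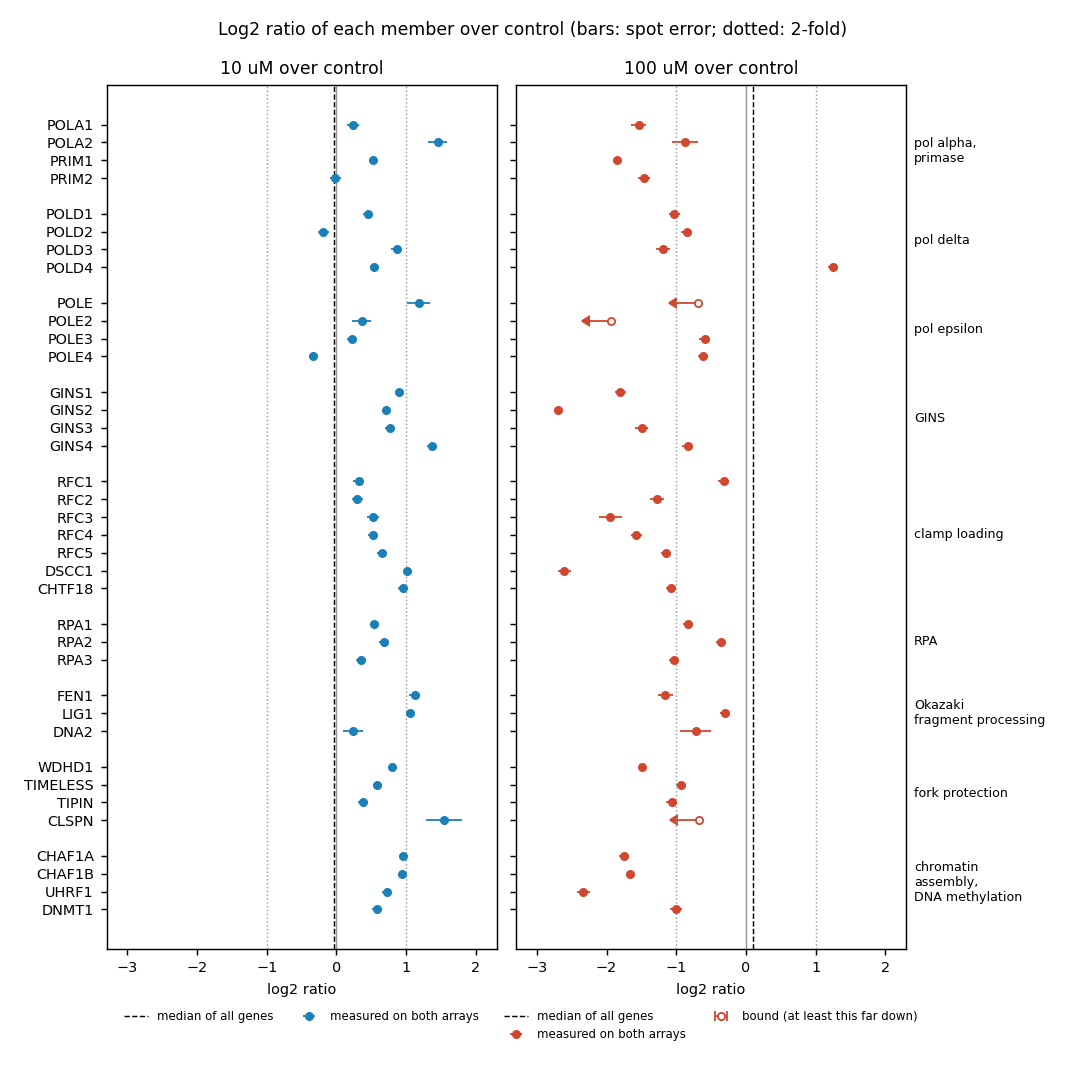
Log2 ratio of each member over control at 10 μM (left) and 100 μM (right), with spot error bars, dotted lines at 2-fold and a dashed line at the median of all genes. At 10 μM the ratios run from -0.33 to 1.55 and at 100 μM from -2.70 to 1.25, where POLD4 is the point on the right and open circles with arrows are bounds.

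The fork protection genes keep the helicase and polymerases together and carry the replication checkpoint signal to CHK1. TIMELESS had signals of 3657, 5480.4 and 1917, or 1.5-fold higher than control and 1.91-fold lower. TIPIN, its partner, had 1734, 2254 and 829, or 1.30-fold higher and 2.09-fold lower. Between the doses the partners differed by 2.86-fold and 2.72-fold, with log2 ratios of 1.52 ± 0.07 and 1.44 ± 0.08, which are apart by less than their spot errors combined.

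CLSPN, the adaptor through which ATR activates CHK1, had 41.1, 120.1 and 18.3. Its ratio of low dose over control was 2.93-fold, with a log2 ratio of 1.55 ± 0.26 (spot error) from a dim probe. After normexp that ratio was 1.80-fold, and the high dose was 1.03-fold below control. Without normexp, the high dose signal was not well above background and at least 1.60-fold lower than control. WDHD1, which links the helicase to polymerase alpha, had 241, 419.5 and 85.8, which is 1.74-fold higher and 2.81-fold lower, or 1.82-fold lower after normexp.

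The chromatin genes were all more than 2-fold below control at the high dose, DNMT1 by the least, with a median log2 ratio of -1.71 over 4 genes. CHAF1A, the large subunit of the histone chaperone CAF-1, had signals of 2154, 4197 and 639, and CHAF1B, the middle subunit, had 1073, 2058 and 339. Their ratios over control were close, 1.95-fold and 1.92-fold higher at 10 μM and 3.37-fold and 3.16-fold lower at 100 μM. The second CHAF1A probe, with 91.3, 176 and 37.6, was 1.93-fold higher and 2.43-fold lower.

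UHRF1, which reads hemimethylated CpG and brings DNMT1 to it, had 1233, 2044 and 244. It was 5.05-fold lower than control at the high dose, with a log2 ratio of -2.34 ± 0.09 (spot error), and 3.55-fold lower by its second probe. DNMT1, the maintenance methyltransferase, had 912, 1366 and 454, and was 1.5-fold higher and 2.01-fold lower. The reader and the enzyme it recruits thus differed at the high dose by more than their spot errors, and DNMT1 lay at the 2-fold line, at 1.85-fold after normexp.

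Other genes of S phase were taken from 4 lists to set the members beside. No test of a difference between lists can be made, and the lists share the same 3 arrays. The median log2 ratios at the low dose, at the high dose and between the doses were 0.58, -1.07 and 1.87 for the members. For 18 genes of the MCM helicase and origin licensing they were 0.47, -1.61 and 1.96. For 12 genes of nucleotide supply they were 0.31, -1.07 and 1.29. For 25 other fork and chromatin assembly genes they were 0.55, -0.95 and 1.45. The list that lay near all genes was that of the other DNA polymerases, chiefly repair and translesion enzymes, with 0.14, 0.01 and 0.22 over the 13 of 14 genes above background.

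**Figure D5:**
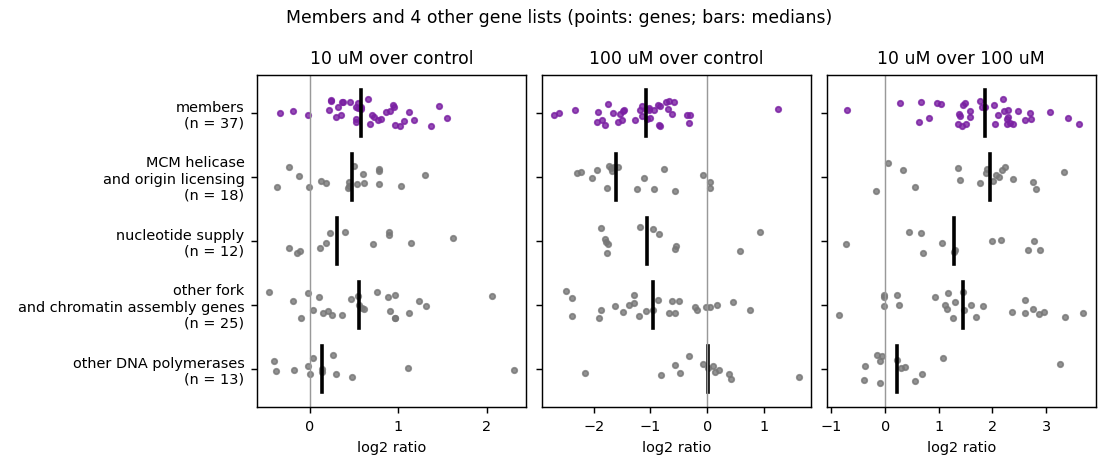
Log2 ratios of the members (purple) and of 4 other gene lists (grey), with 1 point per gene, black bars for medians and bounds drawn at their value. The median of the members between the doses is 1.87, near the 1.96 of the licensing genes, while that of the other DNA polymerases is 0.22.

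Among the licensing genes, CDC45, the helicase partner of GINS, had signals of 3455, 7051 and 703 in control, low dose and high dose cells. It was 2.04-fold higher than control at 10 μM and 4.91-fold lower at 100 μM. MCM2, a helicase subunit, had 2057, 2985 and 443, or 4.65-fold lower at the high dose. CDC7, the kinase that fires origins, was 1.72-fold higher at the low dose, whereas its activator DBF4 was 1.29-fold lower. The subunits of the origin recognition complex were split at the high dose, where ORC2, ORC3 and ORC4 were within 1.05-fold of control, while ORC5, ORC1 and ORC6 were 1.48-fold, 3.32-fold and 2.97-fold below it. ORC1, ORC2 and ORC6 were added after their values were seen. At the low dose ORC5 was 1.18-fold lower. In all, 14 of these 18 genes were past 2-fold in favour of 10 μM over 100 μM.

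Of the nucleotide supply genes, RRM1 and RRM2 encode the subunits of S phase ribonucleotide reductase, and RRM2B encodes a p53-inducible small subunit. RRM1 was 3.65-fold lower than control at the high dose and RRM2 2.20-fold higher at the low dose. RRM2B, with signals of 141, 432 and 271, was 3.06-fold and 1.92-fold higher at the low and high dose. DTYMK, a thymidylate kinase, was 3.49-fold lower at the high dose, and DCTPP1, a dCTP pyrophosphatase, was 1.18-fold lower at the low dose. SAMHD1, which degrades dNTPs, had 129, 116 and 192, so it was higher at 100 μM by 1.49-fold, while its log2 ratio of -0.15 ± 0.15 at 10 μM was within the spot error.

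PCNA, the sliding clamp that RFC loads, had signals of 3886, 16188 and 5318. It was 4.17-fold higher than control at 10 μM and 1.37-fold higher at 100 μM, while all 5 RFC genes were below control at the high dose. DTL, which marks chromatin-bound proteins for degradation with PCNA, was 2.49-fold higher at the low dose and, unlike PCNA, 5.21-fold lower at the high dose. The PCNA-binding PCLAF was 5.62-fold lower at the high dose, and MCM10, a helicase activator, was 5.21-fold lower. FAM111A, a PCNA-binding protease, was 1.69-fold higher at the high dose. ASF1A, a histone chaperone, and POLDIP3, a polymerase delta interacting protein, were 1.37-fold and 1.14-fold lower at the low dose.

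Of the other polymerases, POLH, the p53-responsive translesion enzyme, had signals of 139, 686 and 426, or 4.92-fold and 3.05-fold higher than control. POLQ, the enzyme of end joining by microhomology, had 204, 440.3 and 46.2, or 2.15-fold higher and 4.43-fold lower. The translesion polymerases POLK and POLI were 1.32-fold and 1.31-fold lower than control at 10 μM. PRIMPOL, which reprimes stalled forks, was 1.77-fold lower at the high dose, and POLM, an end joining polymerase, was 1.34-fold higher.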

How the data were processed

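Total RNA from HepG2 cells at 30 h (control, 10 μM and 100 μM etoposide, 1 array each) was labelled with Cy3 and hybridised to Agilent 4 × 44 K whole genome slides. For each array the authors deposited the Feature Extraction (version 10.7.3.1) output, whose processed intensity is background-subtracted and detrended. The deposited table of the series repeated this intensity at each of its 44495 spots, unscaled.

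Outlier spots and control spots were left out, spots of a probe were averaged, and log2 values were set to the 75th percentile over probes. A ratio needed the brighter array well above background by the software's call. The dimmer value was raised where needed to a floor, the dimmest well-above-background signal of that array (19.5, 22.7 and 21.6 before scaling), and such a ratio was given as "at least". The spot error came from the 50 nearest in signal of 999 probes spotted 10 times. With 1 array per condition no test was possible, and a count of genes past 2-fold is a description. The code was tested on simulated arrays. limma 3.58.1 (normexp, in R 4.3.3), scipy 1.17.1, numpy 2.4.6, pandas 2.3.3 and Python 3.11.15 were used. Positions of probes are on hg18, as in the files, and those of promoters on GRCh38.p14, from RefSeq. Promoters printed were the 3 highest and 3 lowest by the ratio of the doses among members above background on all arrays, leaving out chromosome 8. Gene names on the array are old for some genes and were matched through RefSeq synonyms.

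All members were named. Of the other lists, the 2 highest and the 2 lowest genes over control at each dose, among those above background on all arrays, were named, with PCNA. The members and lists were chosen with earlier results of these data known. Alternatives changed the scaling, background correction, probe choice, filter, spots, source of values and fold threshold.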

Additional observations from a re-analysis of the deposited data

How the results depend on the processing

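The member medians kept their direction under all 13 alternatives tried. At 10 μM over control the median log2 ratio was 0.655 with the dimmest probe of each gene, beside 0.584. At 100 μM over control it was -1.073, and -1.323 with no scaling, -1.362 scaled to the median of all probes, -1.244 scaled to spike-in controls and -0.941 after normexp background correction. For 10 μM over 100 μM it was 1.866, and 2.178 with no scaling, 2.134 with median scaling, 1.793 with the percentile over all spots, 1.995 with quantile normalization, 2.092 with spike-in controls, 1.478 after normexp and 1.787 over genes above background on all arrays. The median of all genes shifted with the scaling, by -0.25, -0.29 and -0.17 at 100 μM over control and by 0.31, 0.27 and 0.23 between the doses with none, median and spike-in scaling, and the members minus all genes between the doses stayed at 1.97 under these 3. The cause of the other shifts was not tested.

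Members more than 2-fold higher at 10 μM numbered 7, and 2 after normexp, beside 564 and 253 of all genes. A threshold of 1.5-fold gave 18 and of 3-fold 0. Members higher at 100 μM numbered 1, and 0 with median scaling, 2 with the dimmest probe and 0 at 3-fold. All genes more than 2-fold higher there numbered 1148, and 589 with median scaling and 1209 with the dimmest probe. Members lower at 100 μM numbered 23, and 9 at 3-fold. They numbered 28 with no scaling, 29 with median scaling, 19 with the percentile over all spots and 16 after normexp. All genes more than 2-fold lower there numbered 622, and 1076, 1185, 555 and 425 in the same order. Members higher at 10 μM than at 100 μM numbered 31, and 27 after normexp, beside 610 and 400 of all genes. Members lower at 10 μM than at 100 μM numbered 0, and 1 with the dimmest probe and 1 at 1.5-fold. All genes more than 2-fold lower there numbered 663, and 721 with the dimmest probe. Counts of all genes at 1.5-fold and 3-fold are not given. POLE between the doses reversed to -1.267 with its dimmest probe. Of 1434 member values over the alternatives, 1 that had been past 2-fold changed sign, 350 others moved by more than the spot error and 1083 did not. Ratios not past 2-fold also took both signs in POLE at 100 μM over control, which reached 1.94 with the dimmest probe, and in PRIM2 at 10 μM over control, from -0.06 to 0.86. Normexp moved 1, 5 and 8 member ratios by over 1.5 times at 10 μM, at 100 μM and between the doses. No paired analysis was possible because there was 1 array for each condition. Signal over background limits POLE, POLE2 and CLSPN at the high dose.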

Other observations

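Gene length, taken from RefSeq, showed little relation to the members' ratios. Over the 37 members Spearman's rho with length was -0.08 for 10 μM over control, -0.09 for 100 μM over control and 0.03 between the doses, and over all genes with a length and a ratio it was -0.14, -0.18 and 0.08. These are descriptions across genes on the same arrays, and genes are not independent replicates.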
